A study of Mus musculus with 24 samples.

Results

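Liver RNA of 3 alcohol-fed female mice that carried hairpin vectors against Kdm5b, Kdm5c and Ahr was compared with that of 3 alcohol-fed female mice that carried only the hairpins against Kdm5b and Kdm5c. These 6 libraries, of 24 in the series, were taken by their labels alone. The comparison shows what was different in the liver when the vector against Ahr (the AhR vector) was given on top of the Kdm5 vectors. In total, 48 of 2299 tested genes passed the test, 42 of them higher and 6 lower.

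Every mouse of the series had 3 weeks of Lieber-DeCarli feeding, a liquid diet in which alcohol supplies part of the energy. Each mouse had 2 injections of adeno-associated virus (AAV), a carrier of genes into cells. For the 6 mice compared, the first injection held shKdm5b and shKdm5c, short hairpin RNAs against those transcripts. The second held shControl in the mice called Kdm5 mice here and shAhR in those called Kdm5+AhR mice. The other female groups, also of 3 mice each, had shControl followed by shControl (control mice) or by shAhR (AhR mice), and 12 males were treated in the same 4 ways. The labels give no strain, age, cage, collection time, vector promoter or vector serotype, and they do not say whether the samples were handled in batches.

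AhR, the aryl hydrocarbon receptor, is a transcription factor that binds planar aromatic compounds, pairs with ARNT and turns on genes of foreign-compound metabolism such as Cyp1a1 and Cyp1a2. It belongs to the bHLH-PAS family, as do the clock proteins CLOCK, BMAL1 and NPAS2. KDM5B and KDM5C remove methyl groups from lysine 4 of histone H3, a mark of active promoters, and Kdm5c lies on the X chromosome and escapes its inactivation.

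The table used here gives FPKM, fragments scaled by transcript length and by library size, so read depth is unknown. The FPKM of a library summed to between 301860 and 322474 in the Kdm5 mice and between 281871 and 290205 in the Kdm5+AhR mice. Hepatocyte transcripts dominated all 6 libraries, with Apoa1, the main protein of high-density lipoprotein, at 7930 to 11656 FPKM. Sinusoidal, Kupffer and stellate cell markers were also read, so these are whole-liver values, in which fewer cells of a type and less RNA per cell cannot be told apart. None of the marker genes listed for neutrophils or lymphocytes was analysed here.

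Of the targeted genes, Kdm5c could be followed (chromosome X, 152233198 to 152279102, GRCm38.p6). It stood at 9.94, 9.90 and 9.05 FPKM in the Kdm5 mice and at 10.2, 12.5 and 9.37 FPKM in the Kdm5+AhR mice. The groups overlapped, with a log2 fold change of 0.13 ± 0.11 (SE; adjusted p = 0.522). Kdm5c was at 11.1, 9.32 and 10.6 FPKM in the control mice, which carried no hairpin against it. The Kdm5 mice against these control mice gave a log2 fold change of -0.09 ± 0.11 (limma, adjusted p = 0.66). A fall of Kdm5c RNA under the Kdm5 vectors was therefore not shown in these females. Ahr itself was not analysed here, so the labels of the AhR vector have no check by their own target. Cyp1a2, an AhR target of hepatocytes, read 117, 104 and 109 FPKM in the Kdm5 mice and 85.8, 102 and 79.9 FPKM in the Kdm5+AhR mice. The lower Cyp1a2 values of the Kdm5+AhR mice did not pass (log2 fold change -0.31 ± 0.22, adjusted p = 0.454). Of 5 tested AhR target genes, 0 passed, and the lowest log2 fold change among them was -0.60, for Gsta2.

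Among the genes that rose were outputs and repressors of the circadian clock, and the largest fall was in Nfil3, which opposes those outputs. The respiratory chain gene Cox7a1, the fetal serum protein Afp, the drug efflux pump Abcb1a and the thyroid hormone receptor Thrb also rose, and Tuba8 and Pnrc1 fell. The other genes that rose had, for the most part, long transcripts and modest changes. In limma, 48 of 2299 genes passed at an adjusted p under 0.05 (2.09%), 42 higher (1.83%) and 6 lower (0.261%). At an unadjusted p under 0.05 there were 496. All 48 had no overlap between the groups, a condition that 17.6% of tested genes met as higher and 9.66% as lower. Over all tested genes the median log2 fold change was 0.048, and 58.6% were above 0. Of the 42 that rose, 8 changed by more than 1 on the log2 scale and 28 by less than 0.75.

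The number that passed rested on single mice. Without Kdm5+AhR mouse 3, 0 genes passed (373 at an unadjusted p under 0.05), without Kdm5+AhR mouse 2 it was 4, and without Kdm5 mouse 3 it was 1. Without Kdm5+AhR mouse 1 it was 32, without Kdm5 mouse 2 it was 34, and without Kdm5 mouse 1 it was 95. When limma was fitted to the 6 compared libraries alone, 0 passed, with 438 at an unadjusted p under 0.05, and fitted to the 12 females it called 3. Of the 21 named genes that passed, 0 did so in all 6 fits that each left out 1 mouse, and each kept its direction in all 6.

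The clock turns through a loop in which CLOCK and BMAL1 (Arntl) activate the Per, Cry, Nr1d1 and Nr1d2 genes, whose products then hold that activity down. Dbp, Tef and Nfil3 encode leucine zipper factors that bind a shared sequence, the D-box: DBP and TEF activate there and NFIL3 represses. CLOCK and BMAL1 bind the E-box. AhR with ARNT binds a site built on a short GC-rich core. The 250 bases before an annotated transcription start are shown for 3 clock genes that rose. They run 5′ to 3′ on the gene's strand and are from RefSeq on GRCm38.p6. Capitals mark each match, on either strand, to the E-box CACGTG, the D-box TTATGTAA or the AhR core GCGTG (read as CACGC on the other strand); the E-box and the core share no overlapping match here.
Per3, chr4:151044666-151044915, minus strand: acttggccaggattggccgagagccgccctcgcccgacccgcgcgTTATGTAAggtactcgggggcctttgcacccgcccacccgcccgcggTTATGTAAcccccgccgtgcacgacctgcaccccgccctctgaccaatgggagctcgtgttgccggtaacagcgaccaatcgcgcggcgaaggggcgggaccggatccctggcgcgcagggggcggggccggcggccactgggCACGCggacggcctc
Tef, chr15:81802423-81802672, plus strand, the first of 2 starts: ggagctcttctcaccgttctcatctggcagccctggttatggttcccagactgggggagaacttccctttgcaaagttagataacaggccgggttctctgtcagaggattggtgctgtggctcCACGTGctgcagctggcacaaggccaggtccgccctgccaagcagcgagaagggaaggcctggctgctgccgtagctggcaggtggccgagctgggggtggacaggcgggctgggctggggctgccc
Dbp, chr7:45704997-45705246, plus strand: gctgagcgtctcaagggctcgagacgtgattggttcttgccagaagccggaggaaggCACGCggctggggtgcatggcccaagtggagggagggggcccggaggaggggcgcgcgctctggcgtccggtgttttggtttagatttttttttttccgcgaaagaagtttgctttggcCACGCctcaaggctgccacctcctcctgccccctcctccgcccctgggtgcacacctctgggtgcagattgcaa

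Per3 held 2 D-boxes, 205 and 158 bases before its start, and 1 AhR core at 15 bases. Tef held 1 E-box, 127 bases before its first start. Dbp held 2 AhR cores, at 193 and 74 bases, with no match to the E-box or D-box in this window. For Per3 and Dbp the start used lies inside the gene span given below, as do Per3's core and Dbp's core at 74 bases. The second Tef window, not printed, held 1 E-box at 138 bases and 1 AhR core at 52. Nr1d2 held 1 AhR core, at 120 bases, and Nfil3 held no match. The Nfil3 window and the second Tef window lie wholly inside the gene spans given below. Of all 32851 RefSeq windows of this length, 6.02% held the E-box, 0.819% the D-box and 28.2% the AhR core. Of the 42 genes that rose, 35 had a window, and 6 of these (17.1%) held the E-box, 1 (2.86%) the D-box and 21 (60.0%) the AhR core. Among the 1827 tested genes with a window the shares were 9.74%, 1.20% and 45.4%. These are matches of letters, with no binding measured.

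Dbp (chromosome 7, 45705100 to 45710203) read 2.24, 4.80 and 2.66 FPKM in the Kdm5 mice and 9.47, 17.0 and 14.2 FPKM in the Kdm5+AhR mice. All 3 Kdm5+AhR mice lay above every other female of the series, and the log2 fold change was 1.94 ± 0.44 (3.82-fold, adjusted p = 0.0252). Tef (chromosome 15, 81802673 to 81826863), a relative of Dbp in the same family, read 14.7, 13.7 and 14.1 FPKM against 22.0, 30.2 and 23.7 FPKM. Its Kdm5 mice were close together and its rise was 0.80 ± 0.21 on the log2 scale (adjusted p = 0.0436).

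Of the repressors, Per3 (chromosome 4, 150997018 to 151044707) was low in all 6 mice, at 0.41, 0.57 and 0.30 FPKM in the Kdm5 mice and 1.32, 2.94 and 1.58 FPKM in the Kdm5+AhR mice. It rose by 1.35 ± 0.32 (adjusted p = 0.0275), a change that the added 0.5 FPKM understates at such levels. Nr1d2 (chromosome 14, 18204056 to 18239106), which encodes the nuclear receptor REV-ERB beta, read 5.29, 7.34 and 5.37 FPKM and then 9.57, 15.1 and 13.0 FPKM. The groups did not overlap and the log2 fold change was 1.00 ± 0.23 (adjusted p = 0.0267).

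Nfil3 (chromosome 13, 52967209 to 52982878) moved the other way. It read 21.3, 15.2 and 21.0 FPKM in the Kdm5 mice and 10.3, 9.45 and 6.70 FPKM in the Kdm5+AhR mice. It fell by 1.08 on the log2 scale (SE 0.19, 2.12-fold, adjusted p = 0.0105), to a level under that of all 9 other females. The 3 other clock genes with log2 fold changes near Nfil3 in sign were Arntl, Cry1 and Npas2. Arntl was at 9.84, 9.34 and 9.59 FPKM against 8.46, 5.72 and 6.51 FPKM, -0.46 ± 0.17 (adjusted p = 0.129). Cry1 had -0.59 ± 0.23 (adjusted p = 0.153) and Npas2 -0.60 ± 0.29 (adjusted p = 0.24), so none of these 3 passed.

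Of 13 tested clock genes, 4 rose and 1 fell by the test, and their median log2 fold change was 0.63, against 0.048 over all genes tested. By the test 1.83% of all tested genes rose and 0.261% fell. Above 0 were 9 of the 13, beside 58.6% of all tested genes. The 5 above 0 that did not pass were Ciart at 1.08, Nr1d1 at 0.88, Bhlhe40 at 0.63, Usp2 at 0.17 and Per1 at 0.06. Nr1d1, which encodes REV-ERB alpha, was at 12.6, 28.0 and 38.7 FPKM in the Kdm5 mice, a spread that reached the 38.3 FPKM of Kdm5+AhR mouse 3. The list's median ran from 0.43 without Kdm5 mouse 1 to 0.78 without Kdm5+AhR mouse 1. The labels give no collection time, so its part in these clock values was not tested and cannot be told apart from that of the vector.

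**Figure D1:**
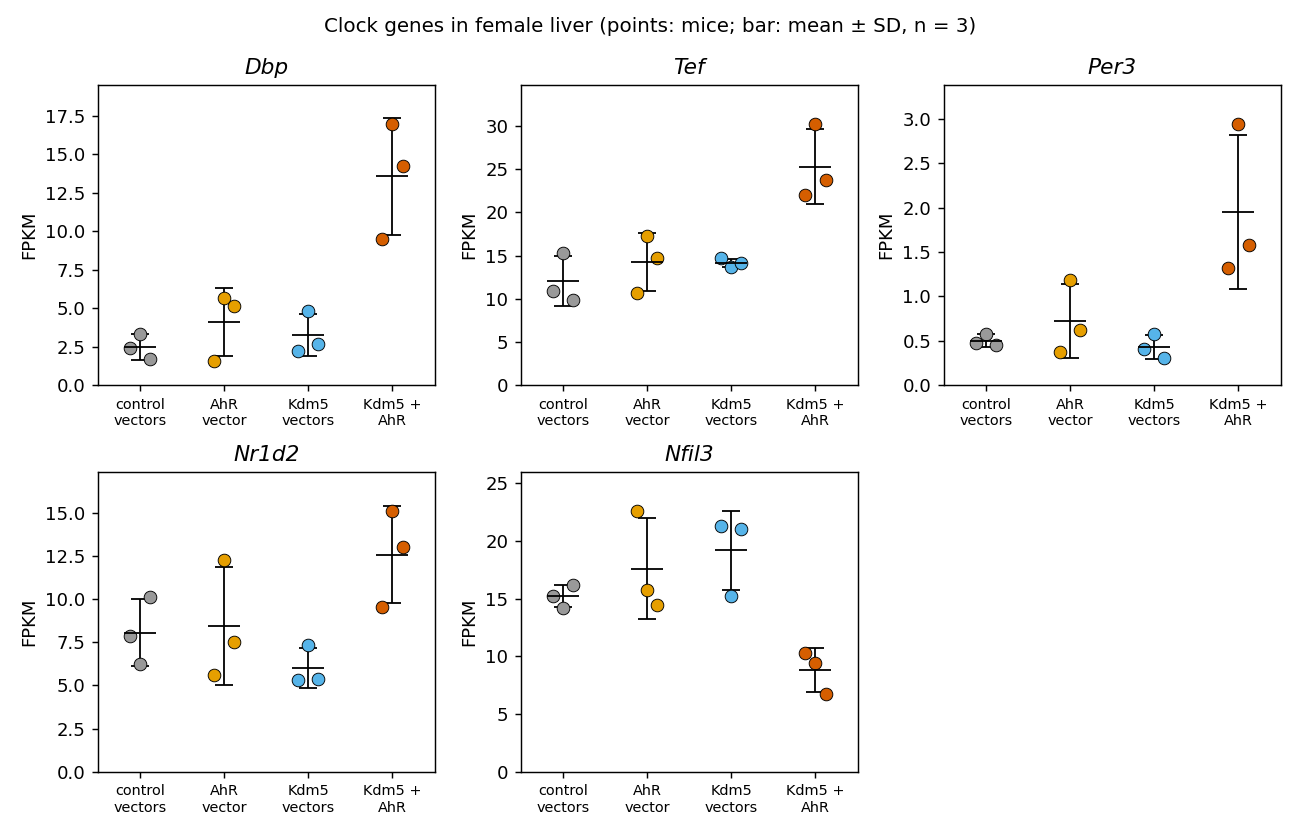
FPKM of Dbp, Tef, Per3, Nr1d2 and Nfil3 (vertical axes) in the 4 groups of female mice, with each point a mouse and the bars the mean ± SD of 3. For Dbp, Tef and Per3 the Kdm5+AhR mice are the 3 highest points of the panel, and for Nfil3 they are the 3 lowest, at 6.70 to 10.3 FPKM.

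The AhR vector without the Kdm5 vectors gave other values for these genes. That comparison, of 3 AhR mice with 3 control mice, shares no library with the one above. Dbp changed there by 0.52 ± 0.44, Per3 by 0.24 ± 0.32, Tef by 0.23 ± 0.21, Nr1d2 by 0.02 ± 0.23 and Nfil3 by 0.18 ± 0.19, and none of the 5 passed. The difference between the 2 effects, with minus without the Kdm5 vectors, passed for Nfil3 (-1.26 ± 0.27, adjusted p = 0.0263). For the other 4 it did not, with adjusted p from 0.253 for Nr1d2 to 0.523 for Tef. In males given the Kdm5 vectors, the AhR vector went with Dbp at 39.4, 28.2 and 28.3 FPKM against 7.10, 19.1 and 11.6 FPKM. This male change of 1.40 ± 0.44 did not pass (adjusted p = 0.124), and it was not shown to differ from the female one (difference 0.54 ± 0.63, adjusted p = 0.636). Tef, Per3 and Nr1d2 changed by 0.07 to 0.17 in males.

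Afp, alpha-fetoprotein, is made by the fetal liver and is nearly silent in the adult (chromosome 5, 90490714 to 90508907). It read 10.3, 5.85 and 8.54 FPKM in the Kdm5 mice and 16.0, 25.2 and 21.4 FPKM in the Kdm5+AhR mice. The rise was 1.30 ± 0.29 (2.47-fold, adjusted p = 0.0252). In the control mice it was at 0.05, 0.23 and 0.33 FPKM and in the AhR mice at 10.1, 16.9 and 20.4 FPKM, so that either kind of vector alone went with a level far above control. The AhR vector alone raised it by 4.50 ± 0.29 (adjusted p = 3.1e-09), and the effect with the Kdm5 vectors was smaller by 3.20 on the log2 scale (SE 0.41, adjusted p = 0.000385). The control values lay under the added 0.5 FPKM, so the size of both log2 values depends on that amount and on a baseline near 0. Group means were 0.203 FPKM in control, 15.8 in AhR, 8.22 in Kdm5 and 20.9 in Kdm5+AhR mice. In the males with Kdm5 vectors Afp lay between 0.16 and 0.77 FPKM whether or not the AhR vector was added. The other tested genes of the fetal list were Igf2 at 0.46 and Tff3 at -0.36, and neither passed.

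Cox7a1 (chromosome 7, 30184171 to 30186030) encodes the muscle and heart form of subunit 7A of cytochrome c oxidase. It had the largest change of all that passed, and it lay near the bottom of the scale. It was listed at 0.74, 0.40 and 0 FPKM in the Kdm5 mice and at 5.69, 2.99 and 3.03 FPKM in the Kdm5+AhR mice. The log2 fold change was 2.36 ± 0.49 (adjusted p = 0.0174). Control mice, which are not in this comparison, had 1.46, 2.76 and 3.41 FPKM, within reach of the Kdm5+AhR mice. The same subunit's liver form, Cox7a2, read 122, 130 and 143 FPKM and then 111, 90.1 and 113 FPKM, -0.34 ± 0.10 (adjusted p = 0.0791).

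Abcb1a (chromosome 5, 8567091 to 8748575), a P-glycoprotein that pumps drugs and lipids out of cells, read 1.84, 1.43 and 1.47 FPKM in the Kdm5 mice and 3.10, 3.51 and 4.95 FPKM in the Kdm5+AhR mice. It rose by 1.05 ± 0.21 (adjusted p = 0.0163), and the control mice were at 3.57, 3.09 and 3.72 FPKM. Thrb (chromosome 14, 17659225 to 18040097), the main thyroid hormone receptor of hepatocytes, read 3.87, 2.62 and 3.07 FPKM and then 6.49, 5.54 and 7.05 FPKM. It rose by 0.90 ± 0.15 (adjusted p = 0.0105). For both genes the AhR mice lay, on average, under the control mice, and the difference of effects passed: 1.45 ± 0.30 for Abcb1a (adjusted p = 0.0251) and 1.19 ± 0.22 for Thrb (adjusted p = 0.0143).

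Slc2a2 and Apob, both abundant in these livers, rose by less. Slc2a2 (chromosome 3, 28697903 to 28728361), the glucose transporter GLUT2 of hepatocytes, was at 99.0, 85.3 and 92.3 FPKM in the Kdm5 mice and 132, 133 and 144 FPKM in the Kdm5+AhR mice. It rose by 0.56 ± 0.13 (1.47-fold, adjusted p = 0.0267), the only one of 18 tested genes of insulin signalling and glucose metabolism that passed. Apob (chromosome 12, 7977629 to 8016839), the scaffold protein of very-low-density lipoprotein, was at 467, 452 and 370.1 FPKM and then 544, 637 and 611 FPKM, a rise of 0.48 ± 0.11 (adjusted p = 0.0252). With the length trend of each library removed, Slc2a2 went to 0.34 and Apob to 0.12, and neither passed.

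The remaining named genes that rose did so by 0.71 to 1.10 on the log2 scale. They were Hacd4 (1.10 ± 0.22), a dehydratase of very long chain fatty acid synthesis, Lmbrd2 (1.02 ± 0.22), Rap1gap (0.96 ± 0.24), which switches off the small GTPase RAP1, 9930111J21Rik1 (0.81 ± 0.20), the ceramide synthase Cers6 (0.79 ± 0.20) and Psd3 (0.71 ± 0.18). Hacd4 read 0.72, 0.58 and 0.91 FPKM in the Kdm5 mice and 2.34, 2.09 and 1.97 FPKM in the Kdm5+AhR mice. Cers6 read 3.14, 2.20 and 2.74 FPKM and then 4.95, 5.68 and 4.38 FPKM.

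Of the genes that fell, Tuba8 and Ccnf had changes near that of Nfil3. Tuba8 (chromosome 6, 121210734 to 121226098), an alpha tubulin, was at 6.75, 5.55 and 9.28 FPKM in the Kdm5 mice and 3.59, 3.70 and 3.30 FPKM in the Kdm5+AhR mice. It fell by 0.91 on the log2 scale (SE 0.20, adjusted p = 0.0252). Under the AhR vector alone Tuba8 went from 1.92, 3.14 and 3.27 FPKM to 5.25, 4.95 and 4.16 FPKM, 0.71 ± 0.20 (adjusted p = 0.156), and the difference of effects was -1.62 ± 0.29 (adjusted p = 0.0141). Ccnf (chromosome 17, 24223230 to 24251409), cyclin F, the substrate-binding part of a ubiquitin ligase, was at 8.30, 11.1 and 11.4 FPKM against 7.02, 5.47 and 4.80 FPKM and fell by 0.79 (SE 0.20, adjusted p = 0.0422).

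Pnrc1 and Pam16 fell by less, and for both the Kdm5+AhR mice lay closer together than the Kdm5 mice. Pnrc1 (chromosome 4, 33245423 to 33248787), a coactivator of nuclear receptors, was at 46.5, 54.4 and 41.8 FPKM in the Kdm5 mice and 34.9, 33.0 and 30.1 FPKM in the Kdm5+AhR mice, -0.53 ± 0.09 (adjusted p = 0.0105). Pam16, a part of the motor that imports proteins into mitochondria, fell by 0.62 (SE 0.14, adjusted p = 0.0252). Next in order of unadjusted p, among lower genes with no overlap (9.66% of tested genes), came 4 that did not pass. They were Phospho1 (-0.83 ± 0.23, adjusted p = 0.06), Urah (-0.23 ± 0.06, adjusted p = 0.063), Serpinf1 (-0.28 ± 0.08, adjusted p = 0.0638) and Rab5if (-0.26 ± 0.08, adjusted p = 0.0717).

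**Figure D2:**
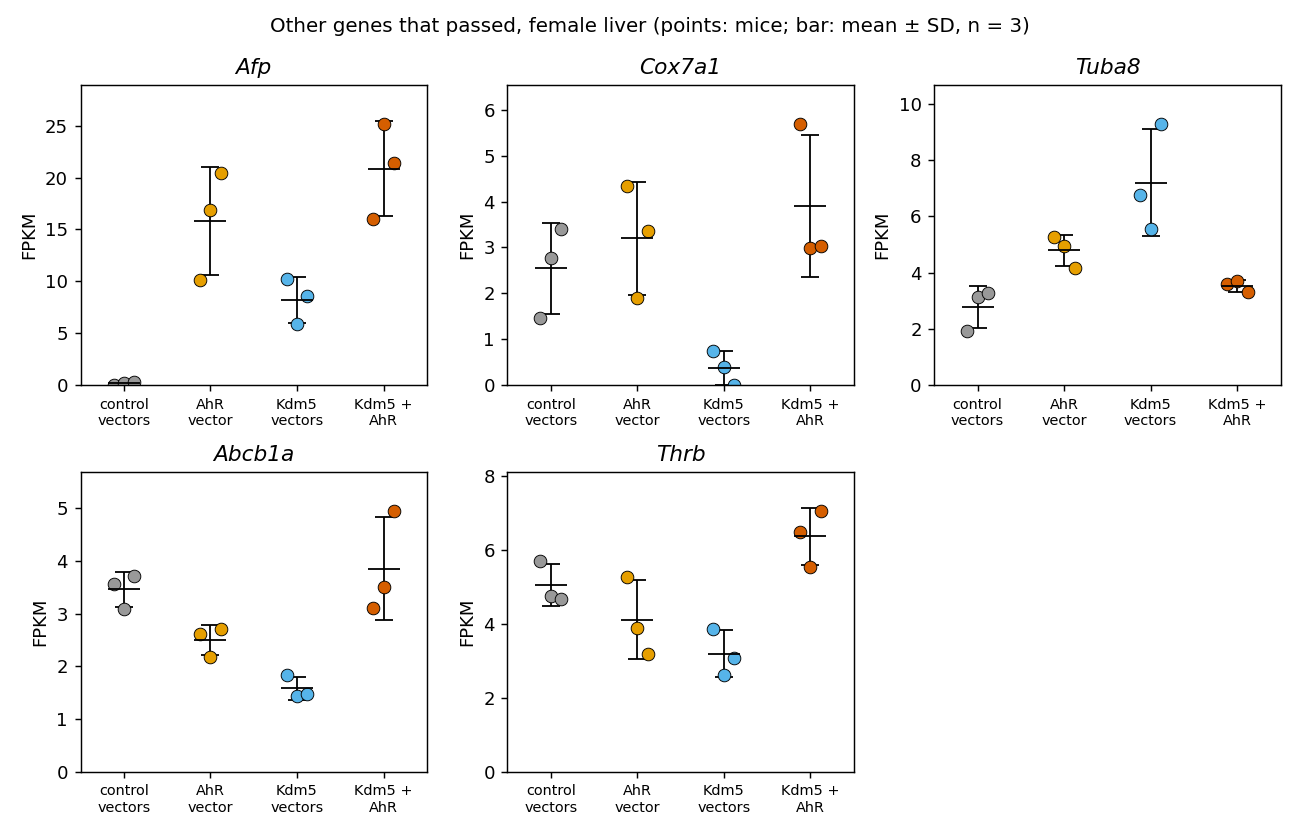
FPKM of Afp, Cox7a1, Tuba8, Abcb1a and Thrb (vertical axes) in the 4 groups of female mice, with each point a mouse and the bars the mean ± SD of 3. The Kdm5+AhR mice are above the Kdm5 mice in every panel except that of Tuba8, where they are at 3.30 to 3.70 FPKM and the Kdm5 mice at 5.55 to 9.28 FPKM.

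The Kdm5 mice are also the treated group when the Kdm5 vectors are compared with control vectors, so a gene that is low in those 3 libraries would be lower there and higher here. The values of that comparison are therefore given beside the present ones with no count of shared genes. Cox7a1 had -1.83 with the Kdm5 vectors alone and 2.36 when the AhR vector was added, Tuba8 had 1.23 and -0.91, and Dbp had 0.31 and 1.94. The Kdm5+AhR mice, set against control mice instead, gave log2 fold changes of 0.54 for Cox7a1 (adjusted p = 0.478) and 2.24 for Dbp (adjusted p = 0.00631).

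The sex-biased genes of the liver, whose female and male patterns follow the rhythm of growth hormone, lay mostly on opposite sides of 0, with 1 member that passed. Of 33 tested female-biased genes 0 rose and 0 fell by the test, 29 were above 0, and their median was 0.28. Of 33 tested male-biased genes Tuba8 fell, 26 were below 0, and their median was -0.32. For all tested genes the median was 0.048, with 58.6% above 0 and 41.4% below 0. Sult2a1, a hydroxysteroid sulfotransferase of female liver, was at 841, 48.9 and 278 FPKM in the Kdm5 mice and 475, 712 and 597 FPKM in the Kdm5+AhR mice (1.38 ± 0.68, adjusted p = 0.245). Cyp3a41a, a female P450, was at 437, 72.7 and 318 FPKM against 483, 455 and 402 FPKM (1.04 ± 0.42, adjusted p = 0.16). In both genes Kdm5 mouse 2 lay far below the other mice, and Kdm5 mouse 1 lay above the Kdm5+AhR mice for Sult2a1 and among them for Cyp3a41a.

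The male-biased genes with the largest shifts had the same mouse at the other end. Slco1a1, a bile salt and steroid transporter of male liver, was at 2.25, 11.7 and 4.36 FPKM in the Kdm5 mice and 1.79, 1.24 and 1.88 FPKM in the Kdm5+AhR mice (-1.37 ± 0.62, adjusted p = 0.206). Mup2, one of the major urinary proteins, was at 2301, 4234 and 2367 FPKM against 1394, 1731 and 1309 FPKM (-0.96 ± 0.33, adjusted p = 0.117). The 19 tested major urinary protein genes share much of their sequence and are uncertain one by one. Of them 0 passed, with a median of -0.41, and 15 were below 0, beside 41.4% of all tested genes. Without Kdm5 mouse 2 the median was 0.15 for the female-biased genes, -0.20 for the male-biased genes and -0.15 for the urinary proteins, and 26 of 33 female-biased genes were above 0. Some male-biased genes are also in the urinary protein list.

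In the other gene groups few members or none passed. Over all tested genes 58.6% were above 0 and 41.4% below 0. Of 46 respiratory chain subunits, Cox7a1 rose, and 41 were below 0 with a median of -0.10. The 24 proteasome subunits had a median of -0.10 with 21 below 0, and the 6 tested cytosolic ribosomal proteins lay between -0.25 and -0.09. Transcripts of these 3 lists are short, with median lengths of 992, 1414 and 677 bases. All tested genes with transcripts of 383 to 1654 bases had a median log2 fold change of -0.10. Of 14 glutathione and NRF2 genes 11 were below 0, with a median of -0.25. Genes of bile acid synthesis and transport (21 tested, median 0.02), fatty acid oxidation (31 tested, median 0.01) and ethanol oxidation (8 tested, median 0.04) were centred near 0, and none passed. Cyp8b1, which sets the mix of bile acids, was at 361, 349 and 327 FPKM against 224, 144 and 151 FPKM, with no overlap, but did not pass (-1.02 ± 0.38, adjusted p = 0.131). Of 13 interferon-stimulated genes 0 passed and 10 were above 0, with a median of 0.32. Gbp7, a guanylate-binding protein, had the largest value of these, 0.78 ± 0.23 (adjusted p = 0.0694). Without Kdm5 mouse 2 the interferon median was 0.07.

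Markers of other liver cells were looked at in the same libraries, in which 58.6% of all tested genes were above 0. All 8 stellate cell and matrix markers were above 0, with a median of 0.27, and none passed. Their FPKM summed to 407.5, 434 and 371 in the Kdm5 mice and 524, 490.4 and 460.3 in the Kdm5+AhR mice. Col3a1, a collagen of fibrous tissue, had the largest value, 0.91 ± 0.30 (adjusted p = 0.102). The stellate list had a median transcript length of 5458 bases. All tested genes with transcripts of 4612 to 27908 bases had the same median log2 fold change, 0.27. Of 11 macrophage markers 8 were above 0 (median 0.22), with summed FPKM of 474 to 529 and 473 to 649.5. Of 9 endothelial markers 7 were above 0 (median 0.14), with summed FPKM of 161 to 163 and 166 to 186. No marker of these 3 lists was at 0 in any of the 6 libraries. The part of these markers in the results above was not tested.

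Transcript length moved with the comparison. The 42 genes that rose had a median longest protein-coding transcript of 6763 bases, the 6 that fell 2144 bases and all tested genes 2698 bases, with a length found for 2265 of 2299 genes. The genes were split by length into 4 bins of 565 to 567. In the bin of shortest transcripts, 383 to 1654 bases, the median log2 fold change was -0.10. It was 0.00 and 0.08 in the middle bins and 0.27 in the bin of longest transcripts, 4612 to 27908 bases. That last bin held 31 of the 42 genes that rose and 0 of the 6 that fell. Across the 2265 genes, which are not independent, the fold change and length had a Spearman rho of 0.54 and a Pearson r of 0.44.

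**Figure D3:**
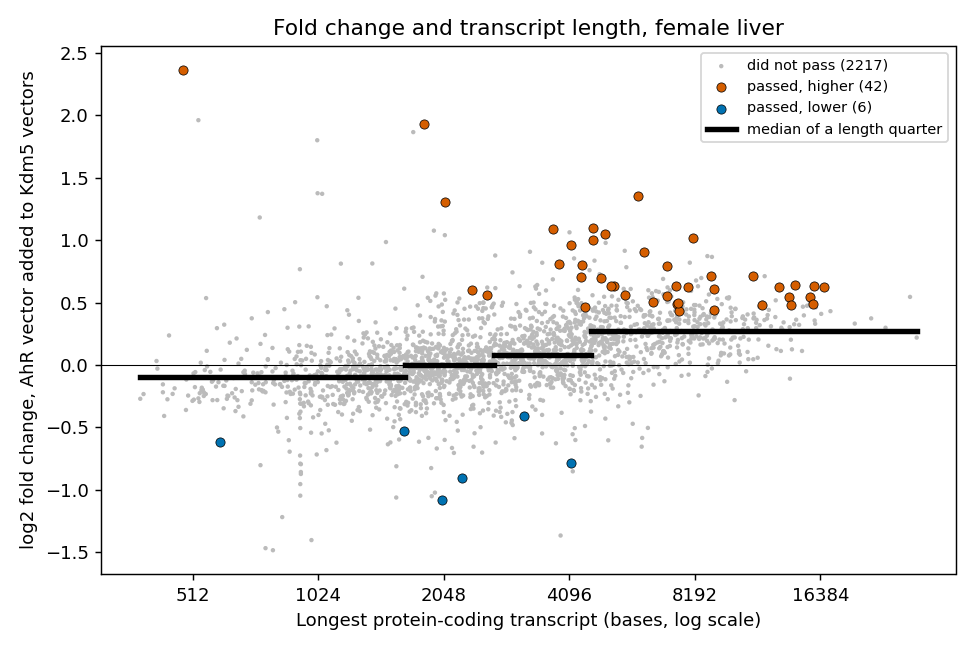
Log2 fold change of each gene between Kdm5+AhR and Kdm5 mice (vertical axis) against the length of its longest protein-coding transcript in bases (horizontal axis, log scale), with genes that passed in colour and black bars for the median of each of the 4 length bins. The medians climb from -0.10 to 0.27, and 31 of the 42 genes that rose lie over the rightmost bar.

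Each library's own slope on length was then taken, as the log2 difference from the gene's mean over mice of that sex per doubling of length. It ran from -0.092 to -0.029 in the Kdm5 mice (mean -0.051 ± 0.036, SD, n = 3) and from 0.046 to 0.103 in the Kdm5+AhR mice (mean 0.075 ± 0.029, SD, n = 3). The groups did not overlap. The difference of 0.126 had p = 0.1 in an exact two-sided permutation test, the smallest that 3 mice against 3 allow. Control females ran from -0.075 to -0.005 and AhR females from -0.005 to 0.058. In males the order was turned round, with 0.026 to 0.059 in Kdm5 mice and -0.071 to -0.038 in Kdm5+AhR mice.

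**Figure D4:**
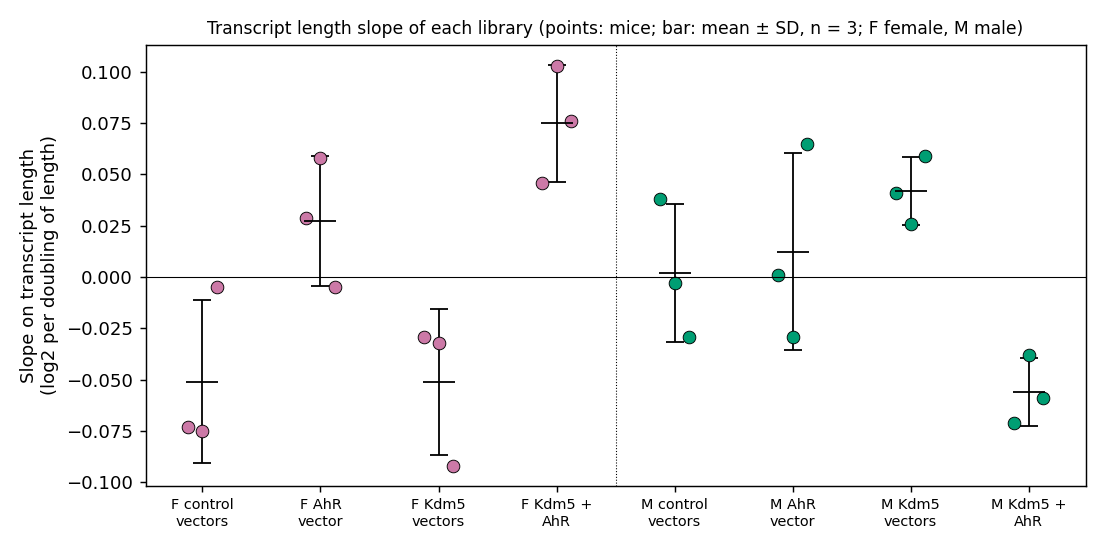
Slope of each library on transcript length (vertical axis, log2 per doubling of length) in the 8 groups of the series, with each point a mouse and the bars the mean ± SD of 3. The female Kdm5+AhR mice lie between 0.046 and 0.103 and the female Kdm5 mice between -0.092 and -0.029, while in males the 2 groups are in the opposite order.

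A fit with the length trend of each library removed, added after the data were seen, bears on how much of each change goes with length. In it limma called 0 of 2265 genes, although 295 had an unadjusted p under 0.05, and the smallest adjusted p was 0.056. The log2 fold change was 2.48 for Cox7a1, 1.97 for Dbp, 1.32 for Afp, -1.06 for Nfil3, -0.91 for Tuba8 and -0.94 for Ccnf, near the values without removal. It was 1.12 for Per3, 0.82 for Nr1d2, 0.64 for Tef and 0.66 for Thrb. Birc6, Vps13d and Usp9x, very long genes picked here after their values were seen, went from 0.49 to 0.11, from 0.63 to 0.26 and from 0.48 to 0.13. The clock list had a median of 0.55, the female-biased genes 0.25 and the male-biased genes -0.27, while the stellate list went from 0.27 to 0.11. The respiratory chain subunits, with a median length of 992 bases, went from -0.10 to -0.04.

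The AhR vector effect was also measured in females without the Kdm5 vectors and in males with them, neither of which shares a library with the present comparison. Without the Kdm5 vectors, 5 genes passed, all higher (0.217%), with 297 at an unadjusted p under 0.05. Of the 48 genes of the present comparison, Afp alone passed there. Of the 42 that rose here, 30 were above 0 there with a median of 0.13, while 47.3% of all tested genes were above 0 with a median of -0.015. The bin of longest transcripts, which held 31 of the 42, had a median of 0.12 there over all its genes. Of the 6 that fell here, 2 were below 0 there. Length moved with the AhR vector in that comparison too, with a Spearman rho of 0.42 across genes.

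The difference between the effects with and without the Kdm5 vectors includes the 6 libraries that picked the 48, which favours those genes. It passed for 14 of 2299 genes (0.609%), 8 positive (0.348%) and 6 negative (0.261%), and 9 of the 48 were among the 14. After removal of the length trend it passed for 17 (0.751%), 8 positive and 9 negative, with all 14 among them. In a fit to the 12 females alone it passed for 1 gene, Afp (adjusted p = 0.0098), and for Abcb1a and Tuba8 the adjusted p was 0.0728, with the same differences. Srsf5, Mavs and Rtn4rl1 were among the 14 as well. Srsf5, a splicing factor, was at 44.1, 51.9 and 59.4 FPKM in the Kdm5 mice and 78.4, 53.8 and 83.0 FPKM in the Kdm5+AhR mice. It was at 109, 105 and 91.5 FPKM in the control mice and 46.0, 64.1 and 66.2 FPKM in the AhR mice, and the difference of effects was 1.25 ± 0.25 (adjusted p = 0.0223). Mavs, an adaptor of antiviral signalling, had -0.18 ± 0.10 with the Kdm5 vectors and 0.50 ± 0.10 without them. The count of 14 fell to 1 without control mouse 1 or without Kdm5+AhR mouse 3, and rose to 23 without control mouse 2. It was 9 without AhR mouse 1 and 8 without Kdm5 mouse 1.

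**Figure D5:**
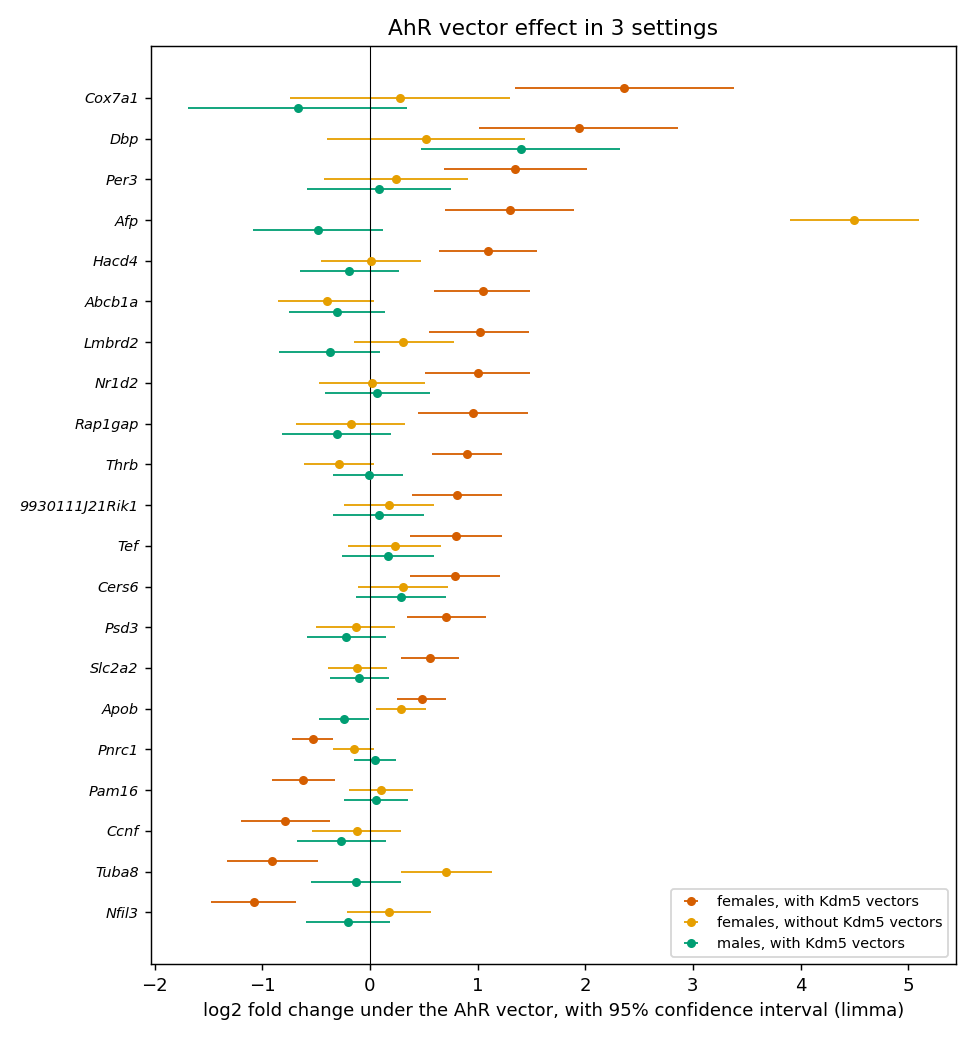
Log2 fold change under the AhR vector (horizontal axis, points, with 95% confidence intervals from limma) for the 21 named genes that passed, in females with the Kdm5 vectors, in females without them and in males with them. Afp lies at 1.30, 4.50 and -0.48 in these settings, and for Nfil3 the interval of the females with Kdm5 vectors lies apart from the other two.

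In males with the Kdm5 vectors, the AhR vector went with 21 genes that passed (0.913%), 4 higher (0.174%) and 17 lower (0.739%), and 379 at an unadjusted p under 0.05. None of the 48 was among them. Of the 42 genes that rose in females, 32 were below 0 in males with a median of -0.20, against 51.8% of all tested genes. The bin of longest transcripts, which held 31 of the 42, had a median of -0.21 in these males over all its genes. The difference of the effect between females and males also includes the 6 libraries that picked the 48, which favours those genes. It passed for 142 genes (6.18%), 127 positive (5.52%) and 15 negative (0.652%), and for 33 of the 48. Among them were Cox7a1 (3.04 ± 0.69, adjusted p = 0.0173), Abcb1a (1.35 ± 0.30, adjusted p = 0.0173), Thrb (0.92 ± 0.22, adjusted p = 0.0194) and Apob (0.72 ± 0.16, adjusted p = 0.0173). Cox7a1 was listed at 1.52, 0.74 and 0 FPKM in male Kdm5 mice and at 0, 0.74 and 0 FPKM in male Kdm5+AhR mice. Length moved in the opposite direction in males, with a Spearman rho of -0.44, and after removal of the length trend the difference between the sexes passed for 2 genes (0.0883%), 1 of them among the 142. The difference went from 3.04 to 3.23 for Cox7a1, from 1.35 to 1.03 for Abcb1a, from 0.92 to 0.51 for Thrb and from 0.72 to 0.06 for Apob. The count of 142 also rested on single mice. It was 34 without female Kdm5 mouse 3, 200 without female Kdm5 mouse 1, 74 and 65 without female Kdm5+AhR mouse 2 or 3, 81 and 68 without male Kdm5 mouse 1 or 3, and 93 and 88 without male Kdm5+AhR mouse 1 or 3.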

How the data were processed

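RNA of whole liver was measured in 24 mice, 8 groups of 3, and groups were taken from the labels' sex and injection entries. The deposited table gives FPKM per gene and library, per its column headers, although its name speaks of raw gene counts. Its values have 2 decimals. The build was GRCm38.p6 and the tools HISAT and Bowtie2, per the submitters' processing notes. Versions, counting and strand are not stated in the notes or labels, so reads of overlapping or antisense genes cannot be told apart. Depth is unknown and gives no counting interval. How the 2372 genes of the table were chosen is not given in the sources used here, so an adjusted p holds within the table.

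Values were tested as log2(FPKM + 0.5), a scale that understates changes of low genes, with limma 3.58.1 in R 4.3.3. All 24 libraries entered 1 fit (a mean for each group, eBayes with trend and robust options, 16 residual degrees of freedom). A gene was tested if 3 or more libraries reached 1 FPKM (2299 genes, 73 left out), and p-values were Benjamini-Hochberg adjusted over them at 0.05. A ± after a log2 value is an SE. The labels call the mice separate samples and no more, so p-values measure the spread between these samples.

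Named are Kdm5c, up to 15 highest and 15 lowest genes that passed with a mean of at least 1 FPKM and no overlap, up to 4 members per list that passed, genes filled up to 10 in a direction by unadjusted p, and up to 5 per direction for each difference of effects. A few genes chosen this way are left unreported. Of 38 lists with 796 entries, 442 entries were in the table. The comparison, the rule and the lists were chosen with earlier results of these data known. Kdm5b and Ahr were not analysed here. Transcript lengths are from a GENCODE annotation of GRCm38.p6, gene positions and promoters from RefSeq. The fit was tested on simulated data with independent noise for each gene and no length trend between the compared groups. That test therefore does not bear on the length trend. Alternatives were median-of-ratios scaling, other pseudocounts and filters, fewer groups in the fit, library weights, no trend, each library left out, and removal of a spline (4 degrees of freedom) on transcript length per library, the last chosen after seeing the data.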

Additional observations from a re-analysis of the deposited data

Results flagged for a closer look

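In 8 named genes the AhR vector effect in females differed with and without the Kdm5 vectors, by a limma test of the difference itself with adjusted p under 0.05. The values are log2 differences, with minus without. Above 0 were Abcb1a at 1.45 (adjusted p = 0.0251), Srsf5, a splicing factor, at 1.25 (0.0223) and Thrb at 1.19 (0.0143). Below 0 were Afp at -3.20 (0.000385), Tuba8 at -1.62 (0.0141), Rtn4rl1, a relative of the Nogo receptor, at -1.27 (0.0288), Nfil3 at -1.26 (0.0263) and Mavs at -0.68 (0.0251). Afp kept its call in each of the 12 fits that left out 1 mouse (-3.48 to -2.99), and the other 7 lost it in 2 to 8 of the 12. The size of the Afp difference depends on the added 0.5 FPKM, since its control values lay under that amount. In a fit to the 12 females alone Afp kept its call (adjusted p = 0.0098), and the other 7 had the same differences with adjusted p from 0.0728 to 0.163.

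In 19 named genes the effect of the AhR vector on top of the Kdm5 vectors differed between females and males, again by a limma test of the difference. The values are log2 differences, females minus males. Above 0 were Cox7a1 at 3.04 (adjusted p = 0.0173), Afp at 1.79 (0.0173), Zbed6, a zinc finger gene, at 1.64 (0.024), Lmbrd2 at 1.39 (0.0173), Abcb1a at 1.35 (0.0173), Hacd4 at 1.29 (0.0197), Rap1gap at 1.26 (0.0354), Psd3 at 0.93 (0.0335), Thrb at 0.92 (0.0194), Apob at 0.72 (0.0173) and Slc2a2 at 0.66 (0.0404).

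Below 0 were Mup2 at -1.69 (adjusted p = 0.0373), the hepatocyte transcription factor Onecut1 at -1.26 (0.0416), the MHC class II gene H2-Ab1 at -1.01 (0.0311), Wdr83os at -0.74 (0.0324), Pam16 at -0.68 (0.0488), Pnrc1 at -0.58 (0.0173), Serpinf1 at -0.42 (0.0348) and Urah at -0.39 (0.0179). Onecut1 and H2-Ab1 rose in males (1.12 ± 0.25, adjusted p = 0.0384, and 0.79 ± 0.19, adjusted p = 0.0493) and were at -0.14 ± 0.25 and -0.22 ± 0.19 in females. Afp, Abcb1a, Apob and Pnrc1 kept their call in each of the 12 fits that left out 1 mouse, and the other 15 lost it in 1 to 10 of the 12, with Pam16 at 10. After removal of the length trend none of the 19 passed, with adjusted p from 0.0808 for Cox7a1 and Afp to 0.885 for Apob. The difference stayed about as large for Cox7a1 (3.23), Afp (1.84), Onecut1 (-1.48) and Mup2 (-1.49), while it went to 0.51 for Thrb, 0.32 for Psd3, 0.29 for Slc2a2, -0.19 for Urah and 0.06 for Apob.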

How the results depend on the processing

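Depth is unknown, so precision at low FPKM could not be set, and 3 mice a group limit each call. The 48 calls of the added AhR vector went to 0 on the compared libraries alone, 3 on the 12 females and 0 with the length trend removed, and ran from 0 to 95 with 1 library left out (0 without Kdm5+AhR mouse 3). Other scaling, pseudocounts, filters, weights and moderation gave 32 to 69. The 21 named genes that passed went to 13 with a pseudocount of 0.1 FPKM, 13 with the filter of 5 FPKM, which leaves fewer genes, 0 on the compared libraries, 3 on the 12 females, 0 with the length trend removed and 0 to 18 with 1 library left out. The 14 differences with and without the Kdm5 vectors went to 1 on the compared libraries, 1 on the 12 females and 1 to 23 with 1 library left out. The 142 differences between the sexes went to 65 with the filter of 5 FPKM, 291 with library weights, 2 with the length trend removed and 34 to 200 with 1 library left out. The cause was not tested. No named gene that had passed turned its direction in these alternatives, and the other genes that passed were not checked for direction. No paired analysis was possible because the labels give each mouse its own number, and replicate numbers here only follow sample order.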
